A study of Mus musculus with 10 samples.

Results

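The NFAT family was followed at the level of 5 genes and their 39 annotated transcripts, out of 54337 genes and 140919 transcripts in the deposited tables. The members were taken by GENCODE M21 symbol and were Nfat5, Nfatc1, Nfatc2 (the gene of NFAT1), Nfatc3 and Nfatc2ip. Mouse CD8 T cells whose transgenic receptor recognises the tumour antigen P1A were activated for 24 h and then infected with a retrovirus. After a further 24 h they were injected into Rag1-/- B10D2 mice, which lack T and B cells of their own and carried P511 tumours, a mastocytoma. CD8 cells were sorted from the tumours 7 days after transfer for RNA sequencing with a Clontech kit.

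The libraries of 3 vectors were compared, numbered as in the labels. CA-RIT NFAT1, a constitutively active NFAT1 that cannot pair with AP-1, gave libraries 2, 4, 9 and 10. NFAT5 overexpression gave libraries 1, 5 and 8, and the empty eGFP vector gave libraries 3, 6 and 7. All groups share the transgenic receptor, the activation and the retroviral infection, and the labels name the strain C57BL/6 although the recipients are B10D2. Nothing in the labels ties a library to a mouse of its own, so a p-value here speaks only of the spread among these libraries, which may be technical.

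Library eGFP 7 held 51112 estimated reads, and the library labelled CA-RIT NFAT1 10 held almost no T cell RNA. In CPM, the reads of a gene scaled to all reads on matched genes of its library, the summed level of 8 CD8 T cell markers was 184.9 CPM in CA-RIT NFAT1 10 and 371.8 CPM in eGFP 7. It was 23274 to 25605 CPM in the other CA-RIT NFAT1 libraries, 21116 to 22490 CPM in the NFAT5 libraries and 28450 to 33097 CPM in eGFP 3 and 6. The results below rest on the remaining 8 libraries, with 18.8 to 36.6 M estimated reads, and values of the left-out libraries are given beside them. In these 8 libraries the summed mast cell and P511 markers reached at most 243.5 CPM and the macrophage markers at most 202.7 CPM, and their part in the results was not tested. Library eGFP 3 had reads on 13186 genes, against 15276 to 17255 genes in the 7 others, and it is 1 of only 2 controls.

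The calcium-regulated NFAT proteins, the products of Nfatc1 to Nfatc4, sit phosphorylated in the cytoplasm of resting T cells. The phosphatase calcineurin, switched on by calcium entry after receptor engagement, frees them to enter the nucleus, where they drive cytokine and inhibitory receptor genes, often paired with AP-1. NFAT5 shares the DNA-binding fold but not the calcineurin control, and drives the genes by which cells adapt to high salt. Nfatc2ip encodes NIP45, a protein first described as binding NFAT1.

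The following short stretches of the GENCODE M21 transcripts (GRCm38) are shown because they mark how the Nfat5 and Nfatc2 isoforms described below are built. For Nfat5-211 the stretch is its very end, with the stop codon in capitals. Only 6 bases follow the stop codon there, so this annotated transcript has almost no 3′ untranslated region (chr8:107370630-107370659, plus strand).
Nfat5-211, end: aacaatttaaccggctcctttTAGtgagat
Nfat5-207 is a fragment of 432 bases that shares its last 396 bases with Nfat5-211. Capitals mark the bases that both share, after a junction in Nfat5-207 (chr8:107338934-107369412) that Nfat5-211 lacks, since the same bases lie inside 1 coding exon there (chr8:107369383-107369412).
Nfat5-207, first junction: tcctcagccgtggggAACAACATCCCTGGA
Nfat5-211, same place: ctttattccccgcagAACAACATCCCTGGA
Nfatc2 transcripts part near the end of the coding sequence on the minus strand of chromosome 2. Capitals mark the bases after the junction at which Nfatc2-201 takes a near, short end (chr2:168519538-168523252) and Nfatc2-202 goes on to the far end (chr2:168507356-168523252).
Nfatc2-201: tggagaagactacagGACCTGCAGGGACCT
Nfatc2-202: tggagaagactacagATGGGCAGCAGATTT
Nfatc2-202 and Nfatc2-204 part again at their last coding junction (chr2:168480235-168504459 and chr2:168486757-168504459), which gives them different last coding bases.
Nfatc2-202, last junction: cctacctggatgacgTTAATGAAATCATCA
Nfatc2-204, last junction: cctacctggatgacgAGTTGATAGACACAC

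Levels set against each other per transcript length, as the deposited TPM values, put Nfatc1 first. It averaged 66.0 ± 29.8 TPM over the 8 libraries (SD, n = 8), Nfatc3 20.2 ± 9.60 TPM, Nfatc2 9.21 ± 5.49 TPM and Nfatc2ip 2.12 ± 0.91 TPM. Nfatc1 was above Nfatc3, and Nfatc3 above Nfatc2, in 8 of 8 libraries. The ranges of mean ± SD overlapped for Nfatc3 and Nfatc2, and not for Nfatc1 and Nfatc3 or for Nfatc2 and Nfatc2ip. Nfatc2 was above Nfatc2ip in 7 of 8 libraries, the exception being eGFP 3. Nfat5 averaged 1.41 ± 0.66 TPM with CA-RIT NFAT1 (SD, n = 3), 35.1 ± 9.54 TPM with NFAT5 (n = 3) and 0.63 ± 0.59 TPM with eGFP (n = 2). It stood below Nfatc2ip in 4 of the 5 libraries without the NFAT5 vector, and above Nfatc3 in 2 of the 3 NFAT5 libraries. The Nfat5 TPM with NFAT5 rest mostly on few reads of a short transcript, described below. In CPM, the NFAT5 libraries had 48.0 to 87.0 for Nfat5 and 101.3 to 186.0 for Nfatc3. Nfatc4, the remaining calcium-regulated member, had 0 reads in all 10 libraries.

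**Figure D1:**
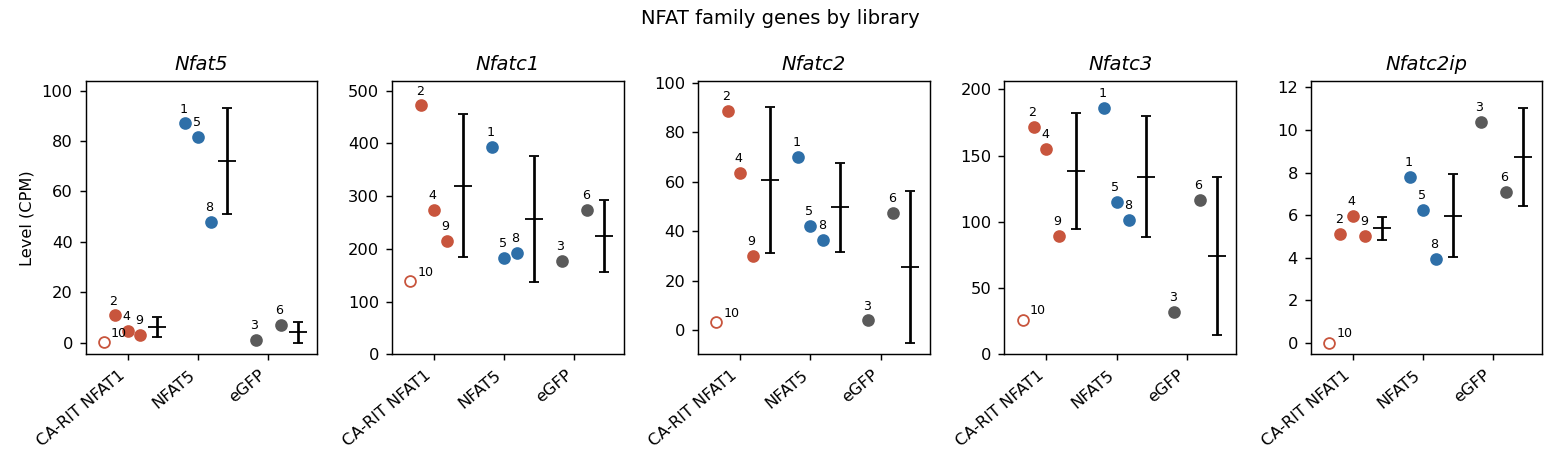
Level of each NFAT family gene in CPM (linear axis) by vector, with 1 point per library and its number beside it, a dash and bars for the mean ± SD of the filled points, and CA-RIT NFAT1 10 as an open point. eGFP 7 is not drawn. The NFAT5 libraries lie at 48.0 to 87.0 CPM for Nfat5 while every other library lies at 10.7 CPM or lower, and eGFP 3 is the lowest filled point for Nfatc2 and Nfatc3.

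Nfat5 (ENSMUSG00000003847, chromosome 8, 107293470 to 107379517, plus strand) was the only member of the 5 whose level set 1 vector apart from both others. Its level stood at 10.7, 4.69 and 3.01 CPM in CA-RIT NFAT1 2, 4 and 9. It stood at 87.0, 81.6 and 48.0 CPM in NFAT5 1, 5 and 8, and at 1.12 and 6.88 CPM in eGFP 3 and 6. The NFAT5 libraries did not overlap with the others, whereas the CA-RIT NFAT1 and eGFP libraries overlapped with each other. The left-out CA-RIT NFAT1 10 held 3 reads (0.0923 CPM), and eGFP 7 held none, where 3 reads equal 58.7 CPM and so leave that library undecided.

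No single comparison passed the adjusted threshold in the test chosen. With edgeR's quasi-likelihood test the log2 fold change of Nfat5 was -3.58 ± 0.72 (SE) for CA-RIT NFAT1 against NFAT5 (Benjamini-Hochberg adjusted p = 1.0). It was 4.11 ± 0.89 for NFAT5 against eGFP (edgeR adjusted p = 0.654) and 0.53 ± 0.75 for CA-RIT NFAT1 against eGFP (adjusted p = 0.836). Nfat5 had 72.2 ± 21.1 CPM in the 3 NFAT5 libraries and 5.29 ± 3.71 CPM in the 5 others. An exact permutation test, two-sided and on log2(CPM + 1), gave p = 0.0357, the smallest that 56 splits allow, and 0.0714 adjusted over 6 tests. Even full separation could not go below 0.0357, so the adjusted value depended on how many of the 6 tests reached it. The 6 tests cover overlapping parts of Nfat5 and Nfatc2. DESeq2 gave adjusted p = 8.46e-04 for CA-RIT NFAT1 against NFAT5 and 6.22e-05 for NFAT5 against eGFP, so the call depends on the tool. The size also rests on the controls: the log2 fold change for NFAT5 against eGFP was 3.36 without eGFP 3 and 5.83 without eGFP 6. For CA-RIT NFAT1 against eGFP it was -0.22 and 2.26. Each of these fits leaves 1 control, so only the size is given.

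Across all genes, edgeR called 0 of 14473 (0.0%) for CA-RIT NFAT1 against NFAT5, where 163 genes (1.13%) had an unadjusted p below 0.05, DESeq2 called 1 gene (Nfat5) and limma voom called 0. For NFAT5 against eGFP it called 0 genes (0.0%), while 1051 (7.26%) had an unadjusted p below 0.05, with 102 calls by DESeq2 and 0 by voom. For CA-RIT NFAT1 against eGFP it called 0 genes (0.0%), while 932 (6.44%) had an unadjusted p below 0.05, with 60 calls by DESeq2 and 0 by voom. Of the 5 members, which all passed the low-count filter, edgeR called 0 in each comparison. Only Nfat5 had an unadjusted p below 0.05, in CA-RIT NFAT1 against NFAT5 and in NFAT5 against eGFP.

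Nearly all of the Nfat5 excess in the NFAT5 libraries lay on transcripts that end with the coding exon. Nfat5-211, the full-length coding transcript of this kind (4656 coding bases), held 33, 0 and 0 reads in CA-RIT NFAT1 2, 4 and 9. It held 1878, 1286 and 788 reads in NFAT5 1, 5 and 8, and 0 reads in eGFP 3 and 6. All reads of it outside the NFAT5 vector were in 1 library, CA-RIT NFAT1 2. Set against a floor of 3 counts summed over the eGFP group, the level assigned in the NFAT5 libraries was 1216-fold higher, and 491-fold without eGFP 3. These ratios are no lower bounds for the transcript itself. Nfat5-211 has no 31-base stretch of its own, so its 0 reads in eGFP depend on how shared reads were assigned. For the whole gene the means were 72.2 CPM with NFAT5 and 4.00 CPM with eGFP. The edgeR fit over 45827 transcripts called 0 (0.0%) in each comparison. For Nfat5-211 the fit gave -7.29 ± 1.72 on the log2 scale for CA-RIT NFAT1 against NFAT5 (edgeR adjusted p = 1.0), and adjusted p = 0.751 for NFAT5 against eGFP. In that comparison 2839 transcripts (6.2%) had an unadjusted p below 0.05, against 820 (1.79%) for CA-RIT NFAT1 against NFAT5 and 2417 (5.27%) for CA-RIT NFAT1 against eGFP. DESeq2 called 57 transcripts for CA-RIT NFAT1 against NFAT5, 585 for NFAT5 against eGFP and 553 for CA-RIT NFAT1 against eGFP, and voom called 0 in each. For Nfat5-211, DESeq2 gave adjusted p = 0.00960 for NFAT5 against eGFP and 0.915 for CA-RIT NFAT1 against NFAT5.

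The short Nfat5-207 followed the same pattern. It held 0, 4 and 0 reads in CA-RIT NFAT1 2, 4 and 9, and 60, 151 and 130 reads in NFAT5 1, 5 and 8. In eGFP 3 and 6 it held 0 reads. The NFAT5 libraries did not overlap with the others, whereas the CA-RIT NFAT1 and eGFP libraries did with each other. The level assigned in NFAT5 libraries was 110-fold above the same floor for eGFP, or 44.4-fold without eGFP 3, which again depends on how shared reads were assigned. The adjusted p values of edgeR were 1.0 for CA-RIT NFAT1 against NFAT5 and 0.751 for NFAT5 against eGFP. Those of DESeq2 were 0.0150 and 0.00130. Of the 31-base words in the sequence of Nfat5-207, 29 occur in no other Nfat5 transcript, whereas Nfat5-211 has 0 words of its own, so no such word tells it from the other Nfat5 transcripts.

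Taken as 1 class, Nfat5-211 and Nfat5-207 carried 10.3%, 2.72% and 0% of Nfat5 reads in CA-RIT NFAT1 2, 4 and 9. In NFAT5 1 they carried 89.8% (Wilson interval at 95% confidence, 88.5% to 91.0%). The share was 93.9% in NFAT5 5, with bounds of 92.6% and 95.0%, and 83.6% in NFAT5 8, with bounds of 81.3% and 85.7%. In eGFP 3 they carried 0 of 41 reads, which allows up to 8.57%, and in eGFP 6 they carried 0 of 170 reads, which allows up to 2.21% (upper Wilson bounds). Such intervals cover counting error only. They do not cover the assignment of reads to transcripts.

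The remaining Nfat5 transcripts, which run on into a 3′ exon or stop early, gave 9.63, 4.56 and 3.01 CPM in CA-RIT NFAT1 2, 4 and 9. They gave 8.86, 4.96 and 7.86 CPM in NFAT5 1, 5 and 8, and 1.12 and 6.88 CPM in eGFP 3 and 6. The 3 groups overlapped. Outside Nfat5-211 alone, Nfat5 had 12.6 ± 1.19 CPM in the NFAT5 libraries and 5.07 ± 3.32 CPM in the 5 others (exact two-sided permutation p = 0.0357, adjusted 0.0714). With Nfat5-207 also left out, a step added after the values were seen, it had 7.23 ± 2.02 CPM in the NFAT5 libraries and 5.04 ± 3.32 CPM in the others (exact permutation p = 0.321).

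**Figure D2:**
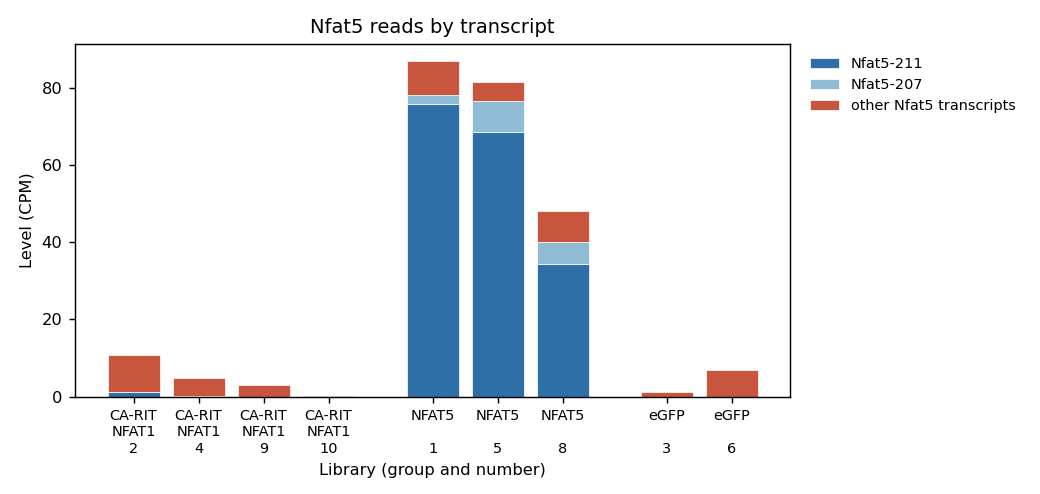
Nfat5 level in CPM (stacked bars, 1 per library) split into Nfat5-211, Nfat5-207 and all other Nfat5 transcripts, by vector and library number. In the NFAT5 libraries the other transcripts make up 4.96 to 8.86 CPM under totals of 48.0 to 87.0 CPM, while in the 5 other libraries with T cell RNA they make up nearly the whole bar, at 1.12 to 9.63 CPM.

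Without the NFAT5 vector, no single Nfat5 transcript led throughout. The largest share fell on Nfat5-208 in CA-RIT NFAT1 2 (49.3% of 319 reads), on Nfat5-206 in CA-RIT NFAT1 4 (67.0% of 136) and on Nfat5-212 in CA-RIT NFAT1 9 (34.7% of 85). It fell on Nfat5-212 in eGFP 3 (85.4% of 41) and on Nfat5-202 in eGFP 6 (45.3% of 170). Nfat5-212 is an intron-retaining transcript with 1316 words of its own, and Nfat5-206 is annotated for nonsense-mediated decay. Nfat5-202 has 0 words of its own, Nfat5-206 has 1 and Nfat5-208 has 26. Which of them led therefore depends on how reads over common sequence were assigned. A change between coding and non-coding forms cannot be read from these shares. Nfat5-201, Nfat5-209, Nfat5-210 and Nfat5-213 also passed 10% of Nfat5 reads in at least 1 of the 8 libraries, at most 22.6%. Because Nfat5-207 is so short, the share of TPM on Nfat5-211 in the NFAT5 libraries was 34.4% on average. Transcripts other than Nfat5-211 and Nfat5-207 held 2.20 to 2.30 TPM there, of 29.1 to 46.1 TPM in all. On average, most of the Nfat5 TPM given above for the NFAT5 libraries thus rests on few reads of Nfat5-207.

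Nfatc1 (ENSMUSG00000033016, chromosome 18, 80606205 to 80713071, minus strand), the gene of NFAT2, was the highest member, and its vectors overlapped. It stood at 472.0, 273.2 and 215.2 CPM in CA-RIT NFAT1 2, 4 and 9, and at 393.8, 183.7 and 191.7 CPM in NFAT5 1, 5 and 8. In eGFP 3 and 6 it stood at 176.7 and 273.3 CPM, and in the left-out CA-RIT NFAT1 10 at 138.5 CPM. Library 2 was the highest with CA-RIT NFAT1 and library 1 the highest with NFAT5. The log2 fold change was 0.30 ± 0.37 for CA-RIT NFAT1 against NFAT5, 0.08 ± 0.42 for NFAT5 against eGFP and 0.39 ± 0.42 for CA-RIT NFAT1 against eGFP (edgeR adjusted p = 1.0, 0.961 and 0.785).

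Nfatc1 is transcribed from an upstream start, known in mouse T cells for its induction by NFAT itself, and from a downstream start. Each can be joined to a near end, which gives the short protein, or to a far end. The starts differ by 430 words found in upstream transcripts and 138 found in downstream transcripts only, and the ends by 2410 near-end and 2561 far-end words, so these classes rest on more distinct sequence than single transcripts do. The upstream start carried 72.1%, 60.2% and 58.8% of coding Nfatc1 reads in CA-RIT NFAT1 2, 4 and 9. It carried 66.8%, 43.6% and 51.7% in NFAT5 1, 5 and 8, and 86.0% and 66.0% in eGFP 3 and 6. The shares of NFAT5 5 and 8 were the lowest of the 8, and NFAT5 1 lay within the range of the CA-RIT NFAT1 libraries. No test was made of these shares.

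In CPM the upstream start gave 339.3, 164.0 and 126.2 in CA-RIT NFAT1 2, 4 and 9, and 262.8, 79.6 and 98.5 in NFAT5 1, 5 and 8. It gave 152.0 and 179.8 CPM in eGFP 3 and 6. The downstream start gave 131.3, 108.5 and 88.6 CPM in CA-RIT NFAT1 2, 4 and 9, 130.3, 102.9 and 91.9 CPM in NFAT5 1, 5 and 8, and 24.7 and 92.6 CPM in eGFP 3 and 6. The downstream level thus lay between 88.6 and 131.3 CPM in 7 libraries and was low in eGFP 3, while the upstream level ran from 79.6 to 339.3 CPM.

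**Figure D3:**
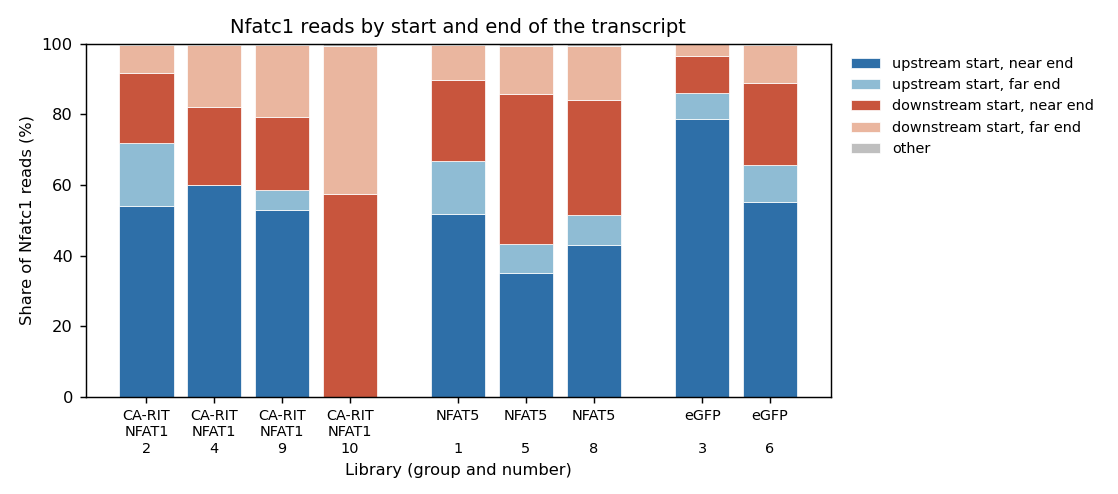
Share of Nfatc1 reads (%) by start and end of the transcript, as stacked bars, 1 per library, grouped by vector. The upstream start with the near end (dark blue) is the largest class in 7 of the 8 libraries used, NFAT5 5 being the exception, and is absent in the left-out CA-RIT NFAT1 10.

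The near end carried 74.3%, 82.5% and 73.7% of coding reads in CA-RIT NFAT1 2, 4 and 9, 75.0%, 78.1% and 76.2% in NFAT5 1, 5 and 8, and 89.3% and 78.6% in eGFP 3 and 6. Apart from eGFP 3, the near end thus took 73.7% to 82.5% under all vectors. The single transcript with most reads was Nfatc1-206, which joins the upstream start to the near end and took 52.8% to 60.0% of Nfatc1 reads with CA-RIT NFAT1. It took 35.0% to 51.8% with NFAT5, and 78.8% and 55.2% in eGFP 3 and 6. Its downstream counterpart Nfatc1-201 took 20.0% to 22.2% with CA-RIT NFAT1, 23.1% to 42.6% with NFAT5 and 10.5% and 23.3% in eGFP 3 and 6. Of the far-end forms, Nfatc1-202 reached at most 12.5% and Nfatc1-205 at most 15.6%. In CA-RIT NFAT1 10, the library with almost no T cell transcripts, 0 of 4473 coding reads came from the upstream start (upper Wilson bound 0.0858%) and the near end took 57.8%.

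Nfatc2 (ENSMUSG00000027544, chromosome 2, 168476410 to 168601657, minus strand) encodes NFAT1, the protein of the CA-RIT vector. Its libraries ran at 88.8, 63.5 and 30.0 CPM in CA-RIT NFAT1 2, 4 and 9, at 70.0, 42.3 and 36.6 CPM in NFAT5 1, 5 and 8, and at 4.00 and 47.3 CPM in eGFP 3 and 6. The vectors overlapped, with eGFP 3 far below every other library. The log2 fold change was 0.27 ± 0.74 for CA-RIT NFAT1 against NFAT5 (edgeR adjusted p = 1.0), 0.89 ± 0.85 for NFAT5 against eGFP (adjusted p = 0.750) and 1.16 ± 0.86 for CA-RIT NFAT1 against eGFP (adjusted p = 0.699). The values against eGFP rest on which control is kept. Without eGFP 3 they were 0.04 for NFAT5 and 0.31 for CA-RIT NFAT1, and without eGFP 6 they were 3.46 (adjusted p = 0.00999) and 3.74 (adjusted p = 0.00774), with eGFP 3 then assumed to vary like the other groups.

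By isoform, the far-end transcripts Nfatc2-202 (2781 coding bases) and Nfatc2-204 (2769) carried most reads. Nfatc2-202 held 1343, 765 and 617 reads in CA-RIT NFAT1 2, 4 and 9, 538, 153 and 444 reads in NFAT5 1, 5 and 8, and 0 and 349 reads in eGFP 3 and 6. Nfatc2-204 held 1041, 779 and 155 reads in CA-RIT NFAT1 2, 4 and 9, 1183, 585 and 273 reads in NFAT5 1, 5 and 8, and 45 and 768 reads in eGFP 3 and 6. Which of the 2 led changed from library to library among the CA-RIT NFAT1 and among the NFAT5 libraries, while Nfatc2-204 led in both eGFP libraries. Nfatc2-204 has 0 words of its own and Nfatc2-202 has 29, so the lead depends on how reads over common sequence were assigned. In eGFP 3 the other 101 of 146 reads fell on Nfatc2-208, a non-coding transcript with 0 reads in each other library.

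The near-end transcript Nfatc2-201 (2019 coding bases) was at 8.41, 8.48 and 1.26 CPM in CA-RIT NFAT1 2, 4 and 9. It was at 0.332, 1.96 and 1.44 CPM in NFAT5 1, 5 and 8, and at 0 and 1.03 CPM in eGFP 3 and 6. CA-RIT NFAT1 2 and 4 lay above all others, and CA-RIT NFAT1 9 lay inside the range of the NFAT5 libraries. The means were 6.05 ± 4.15 CPM in the CA-RIT NFAT1 libraries and 0.95 ± 0.80 CPM in the 5 others (exact two-sided permutation p = 0.107, 0.161 adjusted over 6 tests). Outside Nfatc2-201 the gene had 54.7 ± 25.8 CPM in the CA-RIT NFAT1 libraries and 39.1 ± 23.7 CPM in the others (exact permutation p = 0.536). The class of 4 near-end transcripts has 1571 words found in no other Nfatc2 transcript, so the class has sequence of its own. Nfatc2-201 itself has 0 words that the other Nfatc2 transcripts lack. How many of the 1571 words occur in it was not counted. In CA-RIT NFAT1 10 the transcript had 12 of 110 Nfatc2 reads.

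**Figure D4:**
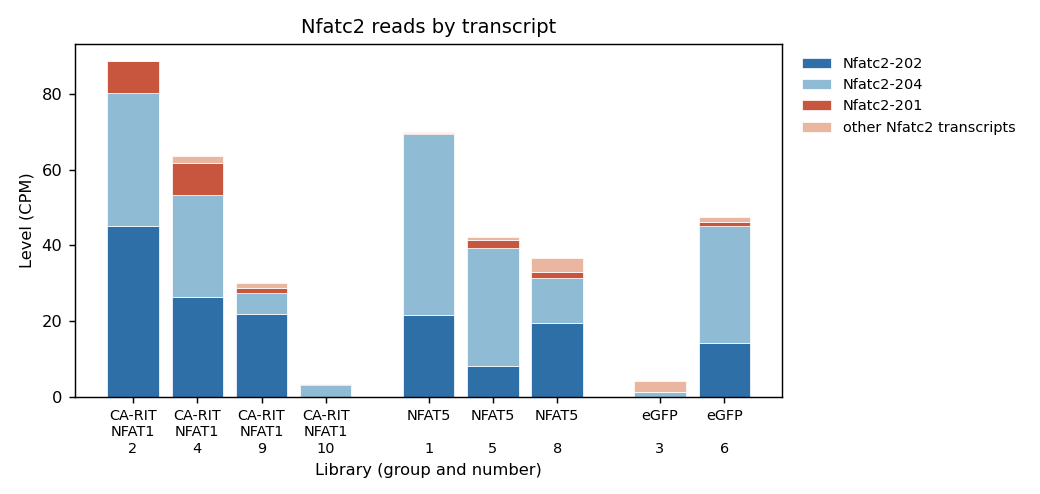
Nfatc2 level in CPM (stacked bars, 1 per library) split into Nfatc2-202, Nfatc2-204, Nfatc2-201 and all other Nfatc2 transcripts, by vector and library number. Nfatc2-201 (red) stands out at 8.41 and 8.48 CPM in CA-RIT NFAT1 2 and 4 and is at most 1.96 CPM in every other library, and eGFP 3 has almost no Nfatc2 reads.

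Nfatc3 (ENSMUSG00000031902, chromosome 8, 106058840 to 106130537, plus strand), the gene of NFAT4, followed Nfatc2 closely across libraries. It stood at 171.8, 155.2 and 89.1 CPM in CA-RIT NFAT1 2, 4 and 9, at 186.0, 114.9 and 101.3 CPM in NFAT5 1, 5 and 8, and at 32.0 and 116.3 CPM in eGFP 3 and 6. All groups overlapped, and eGFP 3 was again the lowest. The log2 fold change was 0.04 ± 0.45 for CA-RIT NFAT1 against NFAT5, 0.78 ± 0.52 for NFAT5 against eGFP and 0.81 ± 0.52 for CA-RIT NFAT1 against eGFP (edgeR adjusted p = 1.0, 0.678 and 0.687). Without eGFP 3 the values against eGFP were 0.17 for NFAT5 and 0.21 for CA-RIT NFAT1. Without eGFP 6 they were 1.89 and 1.93, with eGFP 3 then the only control. Across the 8 libraries the log2(CPM + 1) levels of Nfatc2 and Nfatc3 had Pearson's r = 0.989, and 0.962 without eGFP 3, given as a description of libraries that share depth and gene detection.

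Nearly all Nfatc3 reads lay on Nfatc3-201, which starts at the downstream site and took 83.1% to 93.8% of reads with CA-RIT NFAT1, 87.1% to 88.9% with NFAT5 and 98.4% and 82.1% in eGFP 3 and 6. The coding transcripts with the upstream start, Nfatc3-202 and Nfatc3-206, took 14.2%, 7.68% and 5.74% in CA-RIT NFAT1 2, 4 and 9. They took 10.6%, 8.20% and 9.28% in NFAT5 1, 5 and 8, and 0.496% and 17.4% in eGFP 3 and 6. The 2 eGFP libraries thus bracketed all the others. Both transcripts also end before Nfatc3-201 (at 106128443 and 106128042, against 106130537). Their share therefore cannot separate use of the start from use of the end. The reads of this gene and of Nfatc2ip may be partly shared with other genes, which was not tested directly. The summed reads were a whole number, within 0.01 read, in 1 of 10 libraries for Nfatc3 and in 3 for Nfatc2ip. They were so in 9 for Nfat5 and in 10 for Nfatc1 and Nfatc2. A sum of 0 reads counts as whole here, as in eGFP 7 for each member but Nfatc1 and in CA-RIT NFAT1 10 for Nfatc2ip.

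Nfatc2ip (ENSMUSG00000030722, chromosome 7, 126382854 to 126396737, minus strand) had few reads in every library. It stood at 5.11, 5.97 and 5.04 CPM in CA-RIT NFAT1 2, 4 and 9, at 7.78, 6.23 and 3.92 CPM in NFAT5 1, 5 and 8, and at 10.4 and 7.10 CPM in eGFP 3 and 6. It was the only member at its highest in eGFP 3. The CA-RIT NFAT1 libraries lay below both eGFP libraries, while the NFAT5 libraries overlapped with both. The log2 fold change was -0.16 ± 0.49 for CA-RIT NFAT1 against NFAT5, -0.67 ± 0.54 for NFAT5 against eGFP and -0.84 ± 0.54 for CA-RIT NFAT1 against eGFP (edgeR adjusted p = 1.0, 0.710 and 0.687). Nfatc2ip-201 took 96.2% to 100.0% of its reads. Fewer cells that express a gene and less RNA of it per cell cannot be told apart in such bulk libraries, for this and for every other member.

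Counted over the 5 members, groups that did not overlap in CPM were found once in each comparison. The gene was Nfat5 for CA-RIT NFAT1 against NFAT5, where 6.85% of all genes did not overlap, and Nfat5 for NFAT5 against eGFP, where 22.4% did not. It was Nfatc2ip for CA-RIT NFAT1 against eGFP, where 20.9% of all genes did not overlap, so that with 3 against 2 libraries such a separation was common.

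**Figure D5:**
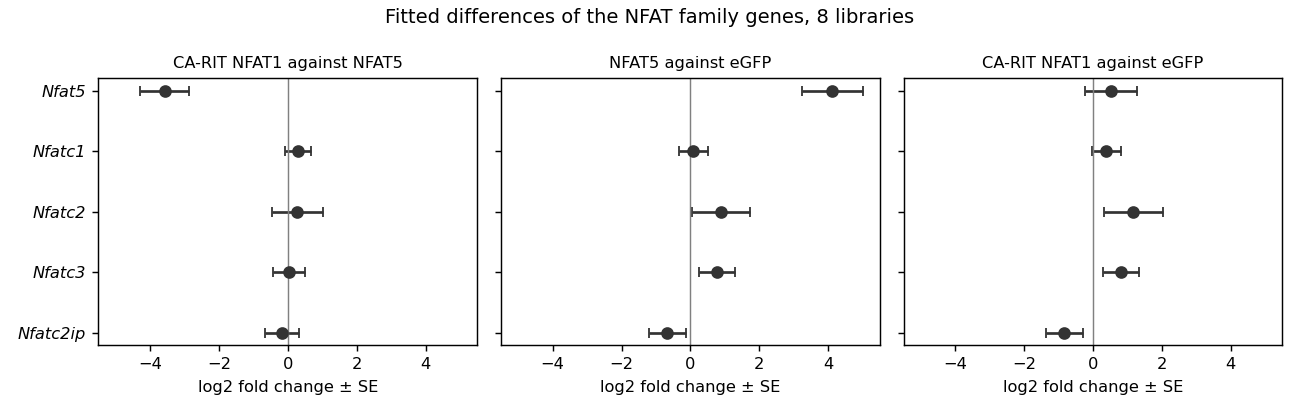
Fitted log2 fold change ± SE (edgeR, 8 libraries) of the 5 members in each comparison, with positive values for a higher level in the group named first. Nfat5 lies at -3.58 and 4.11 in the comparisons that involve the NFAT5 vector, while the other members lie between -0.84 and 1.16 in all 3 comparisons.

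Around the family, a list of regulators and partners held 55 genes, of which 54 were in the tables and 50 passed the low-count filter. It covers calcineurin subunits, calcineurin inhibitors and scaffolds, calmodulins, the kinases that return NFAT to the cytoplasm, retention factors, calcium entry genes and nuclear partners. With edgeR's quasi-likelihood test 0 of the 50 passed an adjusted p of 0.05 in any comparison. At an unadjusted p below 0.05, CA-RIT NFAT1 against NFAT5 had 1 gene of the list on the higher side and 0 on the lower, where 0.788% and 0.339% of all genes lay. NFAT5 against eGFP had 1 on the higher and 3 on the lower side, beside 3.25% and 4.01% of all genes. CA-RIT NFAT1 against eGFP had 2 on the higher and 1 on the lower side, beside 3.28% and 3.16% of all genes. The median log2 fold change of the list was 0.07 for CA-RIT NFAT1 against NFAT5, beside 0.00 over all 14473 genes. It was 0.17 for NFAT5 against eGFP, beside 0.08 over all genes, and 0.22 for CA-RIT NFAT1 against eGFP, beside 0.10.

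The genes with the smallest p were nuclear partners. Fosl1, an AP-1 subunit, was at 0.94, 2.06 and 1.40 CPM in CA-RIT NFAT1 2, 4 and 9 and at 0.71, 3.04 and 0.56 CPM in NFAT5 1, 5 and 8, with 0 reads in eGFP 3 and 6. Its group mean was at least 29.9-fold above eGFP with CA-RIT NFAT1 and at least 29.4-fold with NFAT5 (edgeR adjusted p = 0.679 and 0.654). Without eGFP 3 it was at least 12.1-fold and 11.8-fold above. The left-out CA-RIT NFAT1 10, which held almost no T cell RNA, had 3.64 CPM of Fosl1, above every library used. The part of other cells in these low Fosl1 levels was not tested. Batf, an AP-1 family factor that works with IRF4 in CD8 T cells, was at 146.0, 113.4 and 210.8 CPM in CA-RIT NFAT1 2, 4 and 9 and at 142.7, 94.5 and 140.3 CPM in NFAT5 1, 5 and 8. In eGFP 3 and 6 it was at 350.6 and 179.4 CPM. The NFAT5 libraries lay below both controls, and 1 CA-RIT NFAT1 library lay between them. Its log2 fold change was -1.21 ± 0.38 for NFAT5 against eGFP and -0.90 ± 0.38 for CA-RIT NFAT1 against eGFP (edgeR adjusted p = 0.654 and 0.679). With eGFP 3 left out, Batf had -0.54 for NFAT5 and -0.24 for CA-RIT NFAT1 against eGFP. With eGFP 6 left out it had -1.65 and -1.34, with eGFP 3 then the only control.

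Between the active vectors, the smallest p belonged to Batf3, a relative of Batf, and Irf8, an interferon regulatory factor. Batf3 was at 2.86, 1.42 and 5.00 CPM in CA-RIT NFAT1 2, 4 and 9 and at 1.29, 0.32 and 0.31 CPM in NFAT5 1, 5 and 8, without overlap. In this comparison 6.85% of all genes did not overlap. In eGFP 3 and 6 Batf3 was at 5.72 and 1.54 CPM. Its log2 fold change for CA-RIT NFAT1 against NFAT5 was 2.26 ± 0.98 (edgeR adjusted p = 1.0). Irf8 was at 294.7, 206.3 and 233.4 CPM in CA-RIT NFAT1 2, 4 and 9 and at 227.7, 92.7 and 118.0 CPM in NFAT5 1, 5 and 8, with overlap through NFAT5 1, and its log2 fold change was 0.73 ± 0.34 (edgeR adjusted p = 1.0). In eGFP 3 and 6 Irf8 was at 337.2 and 234.9 CPM. For both genes the CA-RIT NFAT1 mean was not above that of the controls. NFAT5 against eGFP gave -2.66 ± 1.05 for Batf3 and -1.10 ± 0.37 for Irf8 (edgeR adjusted p = 0.654 for both). CA-RIT NFAT1 against eGFP gave -0.39 ± 1.03 and -0.37 ± 0.38 (edgeR adjusted p = 0.911 and 0.774).

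The calcineurin genes were measured in every library used. Ppp3ca, the gene of the catalytic subunit alpha, was at 98.5, 84.8 and 59.7 CPM in CA-RIT NFAT1 2, 4 and 9, at 98.4, 94.2 and 76.2 CPM in NFAT5 1, 5 and 8, and at 12.4 and 83.6 CPM in eGFP 3 and 6. It shared with Nfatc2 and Nfatc3 the low value in eGFP 3. Ppp3r1, the gene of the regulatory subunit, was also lowest in eGFP 3, at 63.3 CPM, with 74.4 to 104.0 CPM in the 7 others. The remaining calcineurin subunit genes of the list went otherwise. Ppp3cc was at its highest in eGFP 3, at 110.5 CPM, with 70.0 to 103.4 CPM in the 7 others. Ppp3cb was at 28.0 CPM in eGFP 3 and lowest in NFAT5 8, at 26.0 CPM. Ppp3ca and Ppp3r1 were chosen as examples after their values were seen.

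The genes whose level most resembled each member were found by Pearson's r of log2(CPM + 1) over the 8 libraries, among 9298 genes that averaged 5 CPM or more. For Nfat5 they were Akirin1 (r = 0.946), Etfrf1 (0.904) and Ncbp3 (0.903), and 3 genes in all reached 0.9. For Nfatc1 they were Ncstn (0.984), Cmip (0.967) and Zkscan14 (0.966), with 91 genes at 0.9 or above. Nfatc2 was most like Tle3 (0.994), Map2k7 (0.994) and Pik3r5 (0.993), and Nfatc3 most like Myo9b (0.997), Ddx24 (0.994) and Slc45a4 (0.994). At least 0.9 was reached by 1365 genes for Nfatc2 and 1171 for Nfatc3, so their pattern was a common one in these libraries. Nfatc2ip was most like Ptpn1, Tesc and B3gnt9 (0.949, 0.948 and 0.948).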

How the data were processed

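RNA of 10 libraries of sorted CD8 T cells was quantified by transcript with Salmon 0.14.1, and the builds mm10 and GRCm38.p6 are named, per the submitters' processing notes. For trimming and command options, the sources used here give nothing. The deposited tables give, per the file headers, the length and effective length of each transcript, TPM and the number of reads. The deposited estimated counts hold fractions, because the authors' quantification shares a read among the transcripts it fits. GENCODE M21 held 139966 of the 140919 transcripts, and the 953 others, with 0.292% or less of a library's reads, were not used. That release is an inference from lengths, identical for 99.9% of the matches. The deposited TPM values were summed per gene, and effective lengths, an other quantity than expression, served only for length offsets.

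Estimated counts were summed per gene, rounded and tested in R 4.3.3 with edgeR 4.0.16 (TMM scaling, quasi-likelihood, the default low-count filter, 1 dispersion trend over 3 groups, Benjamini-Hochberg over all features at 0.05), for genes and for transcripts. The transcript test does not include the uncertainty of assigning reads. CPM use matched reads without TMM factors. Of the members, 5 of 5 genes and 29 of 39 transcripts passed the filter, and 35 transcripts had reads. Exact two-sided permutation tests used log2(CPM + 1) over 56 splits, adjusted over 6 tests. The biological coefficient of variation was 0.725 for genes and 1.03 for transcripts. Depth was 18.8 to 36.6 M reads in the 8 libraries used, where 3 reads equal 0.0821 to 0.160 CPM. The fit was tested on simulated data.

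Members, lists and tests were chosen with earlier results of these data known, including the choice of 8 libraries. Named were all 5 members, transcripts with at least 10% of the reads of their gene in any of the 8 libraries, the 2 regulators with the smallest p per comparison where fewer than 2 passed, and the 3 genes most like each member. Alternatives were 10 libraries, either left-out library added back, each library left out, DESeq2 1.42.0, limma 3.58.1 voom, RLE scaling, other low-count filters, only the compared groups, length offsets, and other units, scalings and pseudocounts for the exact tests.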

Additional observations from a re-analysis of the deposited data

Results flagged for a closer look

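The values of 2 items stood apart within the 4 CA-RIT NFAT1 libraries by the gap to the nearest library relative to the range of the group, a measure that flags about 1 in 20 groups by chance, and 7 groups were looked at. Nfatc2ip had 0 CPM in CA-RIT NFAT1 10, against 5.04 to 5.97 CPM in the other 3. The Nfatc3 transcripts with the upstream start, which also differ in their end, took 56.2% of its reads in CA-RIT NFAT1 10. In the other 3 they took 5.74% to 14.2%.

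Other transcripts in that library, which entered no comparison, lay above the controls. Nfatc1-201 was at 79.5 CPM in CA-RIT NFAT1 10, above the 63.6 CPM of the higher control. Nfatc1-205 was at 38.2 CPM there, against at most 23.1 CPM in eGFP 3 and 6. Nfatc3-206 was at 13.8 CPM there, against at most 8.79 CPM in those controls. The same library had 184.9 CPM of summed CD8 T cell markers, 4047 CPM of mast cell and P511 markers and 4231 CPM of macrophage markers, and their part in these values was not tested.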

How the results depend on the processing

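No paired analysis was made, because the labels number the libraries serially and do not tell whether any were paired. Of the values compared across settings, 165 of the main ones and 459 of the others kept direction and side of the threshold. Of the rest, 2 main and 16 other values reversed, 3 and 16 passed the threshold only under the alternative, and 14 and 13 values with no test moved: counts by over 1.5 times, levels beyond their SD, and lists of most similar genes in their members. edgeR called 0 genes and 0 transcripts, but DESeq2 called 1 gene and 57 transcripts for CA-RIT NFAT1 against NFAT5, 102 and 585 for NFAT5 against eGFP, and 60 and 553 for CA-RIT NFAT1 against eGFP. Without a low-count filter edgeR called 5 transcripts for NFAT5 against eGFP and 4 for CA-RIT NFAT1 against eGFP. RLE scaling gave 1 in the last comparison, and a filter of 10 reads in 3 libraries gave 1. With 1 library left out in turn, calls ran from 0 to 3294 genes and 0 to 4314 transcripts for NFAT5 against eGFP, and from 0 to 3410 and 0 to 4285 for CA-RIT NFAT1 against eGFP, the highest without eGFP 6, which leaves eGFP 3 alone. They stayed at 0 for CA-RIT NFAT1 against NFAT5.

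Adding CA-RIT NFAT1 10 to the exact tests gave log2 differences of 4.10 for Nfat5, 5.66 for Nfat5-211 and 1.74 for Nfat5 outside it (adjusted p = 0.0476 each, exact permutation), where leaving out 1 library gave 3.39 to 4.00, 5.42 to 5.98 and 1.04 to 1.62. A further library allows more splits, so the smallest p that can be reached falls by itself. CA-RIT NFAT1 10 also held almost no T cell RNA, so these p-values are no stronger result than those over 56 splits. Adding CA-RIT NFAT1 10 turned Nfatc2 to -0.051 and Nfatc2 outside Nfatc2-201 to -0.15. The same library turned the log2 fold changes for CA-RIT NFAT1 against NFAT5 to -0.12 for Nfatc2 and -0.30 for Nfatc3, and 10 libraries gave the same -0.12 and -0.30. voom turned Nfatc1 to -0.10 for NFAT5 against eGFP. With 1 library left out the direction was not kept by Nfatc1 (-0.053 to 0.74), Nfatc2 (-0.069 to 0.60), Nfatc3 (-0.12 to 0.33) and Nfatc2ip (-0.38 to 0.060) for CA-RIT NFAT1 against NFAT5, by Nfatc1 (-0.32 to 0.36) for NFAT5 against eGFP and by Nfat5 (-0.22 to 2.26) for CA-RIT NFAT1 against eGFP. The cause was not tested. Length offsets gave Nfat5 -4.72 for CA-RIT NFAT1 against NFAT5 and 5.73 for NFAT5 against eGFP. Of the 3 genes most like a member by Pearson's r, Spearman's rho kept 0 among its own first 3, or 1 for Nfatc2ip. The named genes still had a rho of 0.810 to 1. Map2k7 had a rho of 1 with Nfatc2, so only ties over 8 libraries put other genes before it. Depth limits Nfat5 outside the NFAT5 vector, at 41 to 319 reads a library.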
